A study of Bos taurus with 12 samples.

Results

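The transcripts described here had over 3 estimated counts in every oocyte library of one body condition group of dairy cows and at most 3 in every oocyte library of the other. Of 38030 annotated bovine transcripts, 23686 had an FPKM (the estimated count scaled by the effective length of the transcript and the total of the library) over 1 in at least 1 of 6 oocyte libraries. A transcript was taken as exclusive to a group when its estimated count, rounded to a whole number, was over 3 in all 3 libraries of that group and at most 3 in all 3 libraries of the other. This rule gave 186 transcripts, of which 112 (0.473% of the 23686) were exclusive to the L group and 74 (0.312%) to the M/G group. These transcripts were chosen by their oocyte counts, so their oocyte difference is a description and carries no test, whereas the cumulus libraries took no part in the choice.

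The animals were multiparous lactating Holstein cows. The L group had lost body condition between calving and 27 to 33 days in milk, and the M/G group had maintained or gained it over the same period. All cows, in both groups, had gone through a Double Ovsynch synchronization, and the single preovulatory follicle was aspirated 20 h after the last GnRH, at 75 to 81 days in milk. Each oocyte library came from 1 single metaphase II oocyte, and each cumulus library from the somatic cells that had surrounded 1 oocyte, with 3 libraries per group and cell type. The 12 libraries came from 9 cows, of which 3 gave both cell types. The condition field of the labels names the opposite group from the title in all 12 libraries. Groups follow the titles here, because the list of cows in the study places every cow in the group of its title; with the condition field every direction below would turn round.

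A metaphase II oocyte is transcriptionally silent. Its RNA was made and stored during growth, and later changes in its RNA come from the use and degradation of stored messages. Cumulus cells are transcriptionally active follicle cells that are joined to the oocyte by gap junctions and expand around it before ovulation. The cumulus libraries show whether a transcript that separated the oocyte groups also separated the somatic cells of cows in the same groups, although only 3 of the 9 cows gave an oocyte and a cumulus library, 1 in the L and 2 in the M/G group.

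Total estimated counts per library were between 8073221 and 31810285 for oocytes and between 6397423 and 11879885 for cumulus cells. In CPM (counts scaled to the library total), 3 counts equal 0.372 in the smallest oocyte library, M/G 1, and 0.0943 in the largest. Oocyte M/G 1 stood apart in other ways as well. Its 10 most abundant transcripts held 29.1% of the counts, against 2.63% to 2.91% in the other oocyte libraries, and its mean correlation with the other oocytes over transcripts was 0.443 against 0.693 to 0.725. Its correlation with the mean cumulus profile was 0.641 against 0.367 to 0.549. In cumulus L 3, the 10 most abundant transcripts held 54.3% of the counts, against 10.05% to 20.8% in the other cumulus libraries. The files name transcripts by Ensembl identifier, and the gene table used here matched 0 of them, so the transcripts are given by identifier or by length and the labelled cell types were not checked against marker genes.

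Both sets were low in abundance within their own oocytes. The mean FPKM over the 3 L libraries had a median of 4.12 over the 112 L-exclusive transcripts, with quartiles of 1.61 and 7.86 and a highest value of 91.7. For all 13125 transcripts detected in all 3 L oocytes, by the same limit of 3 counts, the median was 15.7. The 74 M/G-exclusive transcripts had a median of 5.08, quartiles of 2.62 and 8.84 and a highest value of 127, against a median of 18.0 for the 9935 transcripts detected in all 3 M/G oocytes. The level differed between libraries: the median FPKM over the members was 1.58, 3.58 and 3.22 in L 1, L 2 and L 3, and 8.07, 2.02 and 1.14 in M/G 1, M/G 2 and M/G 3. In sets chosen and averaged without 1 library, the median fell to 2.67 for the L-exclusive (without L 3) and to 2.70 for the M/G-exclusive transcripts (without M/G 1). A mean FPKM over 10 was reached by 21 L-exclusive (18.8%) and 17 M/G-exclusive transcripts (23.0%), compared with 62.1% and 67.2% of all transcripts detected in all 3 L and in all 3 M/G oocytes. Only 47 L-exclusive (42.0%) and 30 M/G-exclusive transcripts (40.5%) were over 1 FPKM in each library of their own group, against 84.1% and 79.2% of the transcripts detected in all 3 libraries of those groups.

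The median lengths lay close to those of other transcripts. The L-exclusive transcripts had a median length of 2158 nt (204 to 6347) and the M/G-exclusive ones of 2032 nt (330 to 6569). The medians were 2205 and 2301 nt for all transcripts detected in all 3 libraries of the L and of the M/G group, and 2121 nt for all 23686. Transcripts under 500 nt made up 10 of the 112 (8.93%) and 3 of the 74 (4.05%), against 3.11% and 2.75% of the transcripts detected in all 3 libraries of the L and of the M/G group and 4.73% of the 23686. These shares rest on 10 and 3 transcripts and were not tested. Those over 3000 nt made up 33.0% and 31.1%, against 30.3% and 33.1% of the transcripts detected in all 3 libraries and 28.9% of the 23686. In short transcripts a few counts give a high FPKM, since the effective length is small. The L-exclusive transcript with the highest mean FPKM, 91.7 ± 73.6 (SD, n = 3), was 204 nt long and had 74, 46 and 4 counts in L 1, L 2 and L 3.

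**Figure D1:**
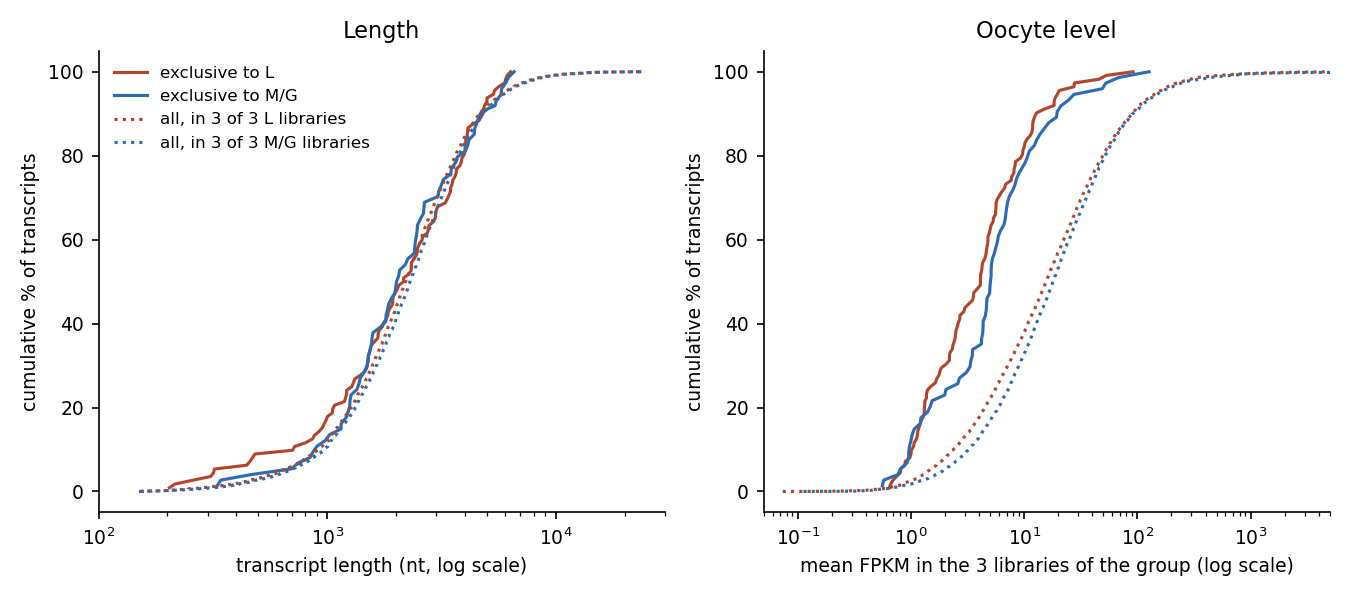
Cumulative percentage of transcripts (y axis) by transcript length in nt (left, log scale) and by mean FPKM in the 3 oocyte libraries of the group (right, log scale, drawn up to 5000). Solid lines are the 112 L-exclusive and 74 M/G-exclusive transcripts, and dotted lines are all transcripts detected in all 3 oocyte libraries of the same group. The length curves run close together (medians 2158, 2032, 2205 and 2301 nt), while the exclusive transcripts lie to the left in level (medians 4.12 and 5.08 against 15.7 and 18.0).

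The depth behind the calls was modest. The lowest count in the own group was 4 to 10 in 19 L-exclusive and 23 M/G-exclusive transcripts, 11 to 100 in 64 and 39, and over 100 in 29 (25.9%) and 12 (16.2%). Among all transcripts detected in all 3 libraries of the L or the M/G group, 73.7% and 55.6% were over 100 in every one of them. In the other group, the estimated count was exactly 0 in all 3 libraries for 65 L-exclusive and 50 M/G-exclusive transcripts. A residual value that rounded to 0 was the most seen in 21 and 11, and the highest count was 1, 2 or 3 in 11, 9 and 6 L-exclusive and in 6, 4 and 3 M/G-exclusive transcripts. Next to the limit, 5 transcripts were kept out of the L-exclusive set and 10 out of the M/G-exclusive set because the other group reached 4 or 5 counts, and 15 and 23 because the own group had 2 or 3 counts in its lowest library. Inside the limit, 5 and 7 members had a lowest own count of 4 or 5.

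The levels of the own group can be set against the floor of the other, the FPKM that 3 counts would give in its least sensitive library for that transcript. Since the rule used these counts, the ratio is only a description of depth. The ratio of own mean to floor had a median of 15.4 (lowest 2.57) for the L-exclusive and of 50.5 (lowest 5.01) for the M/G-exclusive transcripts. It was at least 10 in 67 of the 112 and in 71 of the 74. The sets cannot be compared by this ratio, since the smallest libraries of the other groups differ. In CPM, 3 counts equal 0.372 in M/G 1 and 0.167 in L 2. The median lowest own count went the other way, at 35.5 for L-exclusive and 21 for M/G-exclusive transcripts. These floors cover counting error only.

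**Figure D2:**
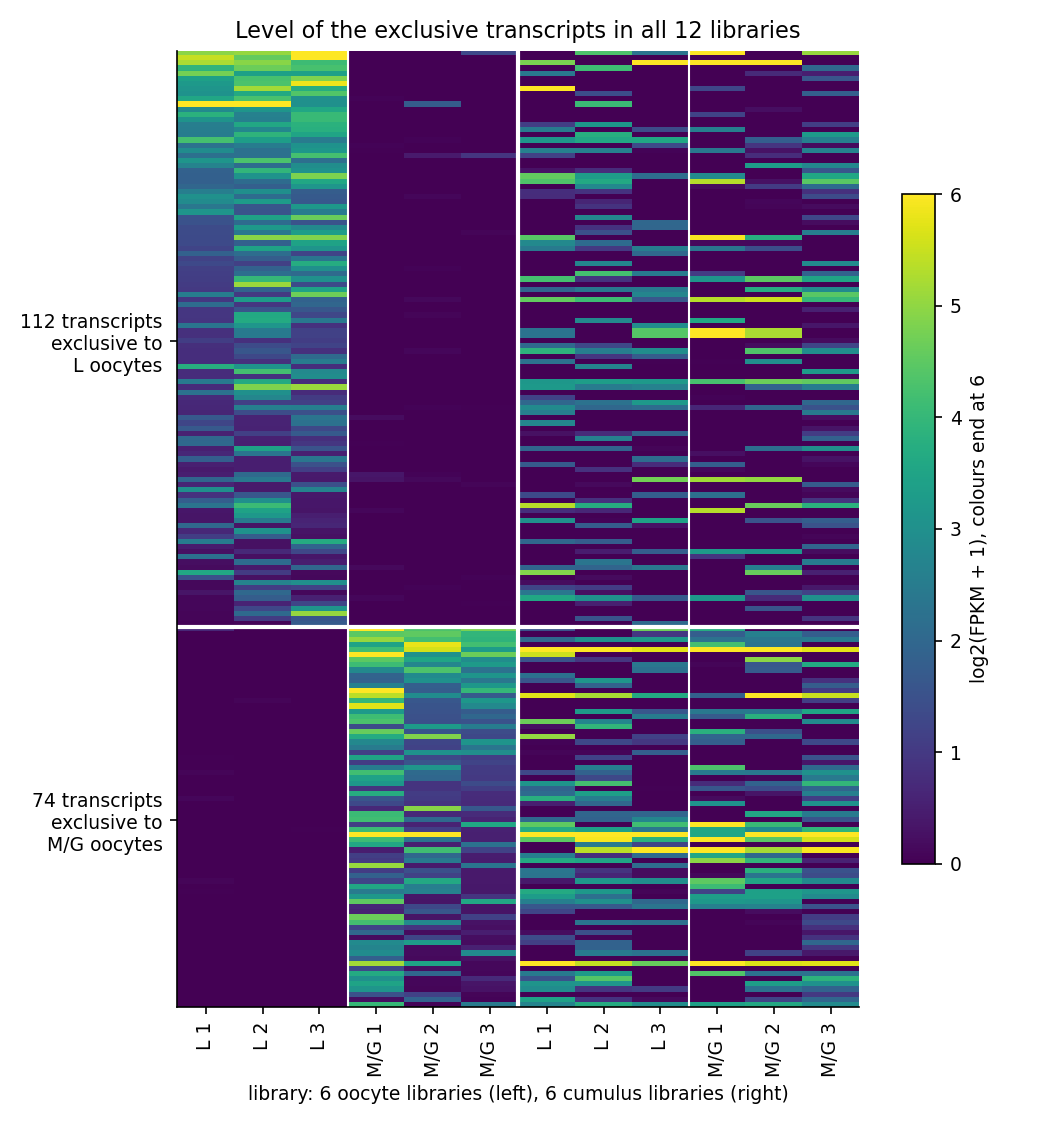
Level of each exclusive transcript (rows) in the 12 libraries (columns) as log2(FPKM + 1), with colours ending at 6. Rows are ordered within each set by the lowest FPKM in the own oocyte group. The oocyte columns show the pattern that the rule fixed, and in the cumulus columns the same rows are lit in libraries of both groups, mostly in some libraries and not in others.

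Within their own group, the exclusive transcripts varied widely between oocytes. The highest library exceeded the lowest by a median of 6.85-fold for the L-exclusive transcripts, against 2.11-fold for all transcripts detected in all 3 L oocytes. For the M/G-exclusive transcripts the median was 17.1-fold, against 4.82-fold. The rule used these same counts, and the sets had fewer of them. The median lowest-library count was 35.5 for L-exclusive and 21 for M/G-exclusive transcripts, against 358 and 130. No comparison was matched for level, so these ratios are only a description. The highest FPKM fell in L 1, L 2 and L 3 for 15, 46 and 51 L-exclusive transcripts. In the M/G group it fell in M/G 1 for 47 of 74 (63.5%), in M/G 2 for 22 and in M/G 3 for 5 (6.76%), whereas M/G 1 was highest for 35.5% and M/G 3 for 35.1% of all transcripts detected in all 3 M/G oocytes. The oocyte library that stood apart was thus the highest library for most M/G-exclusive transcripts, and the part it had in their choice was not tested beyond the counts without it. Without M/G 1 the rule gave 208 M/G-exclusive transcripts, 63 of them among the 74, and 160 L-exclusive ones, among them all 112.

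**Figure D3:**
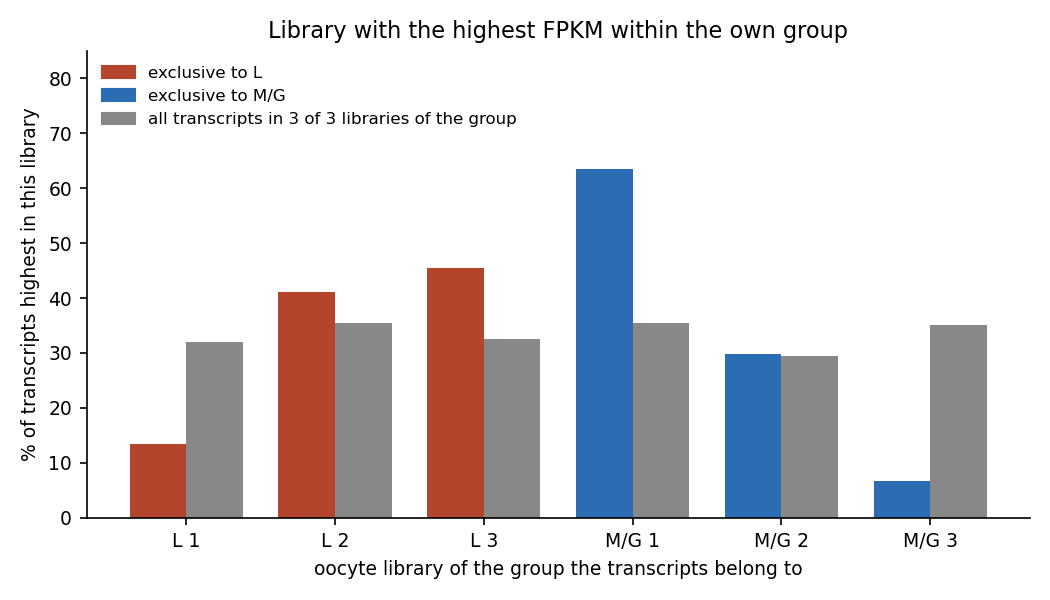
Percentage of transcripts (y axis) whose highest FPKM within the group falls in each oocyte library (x axis), for the exclusive transcripts (coloured bars) and for all transcripts detected in all 3 libraries of that group (grey bars). M/G 1 is highest for 63.5% of the M/G-exclusive transcripts and M/G 3 for 6.76%, while the grey bars lie near each other.

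Summed over each set, the exclusive transcripts were a very small part of the oocyte RNA. The L-exclusive set held 0.0860%, 0.134% and 0.189% of all counts in L 1, L 2 and L 3. The M/G-exclusive set held 0.211%, 0.102% and 0.0503% in M/G 1, M/G 2 and M/G 3. Most exclusive transcripts shared reads with other transcripts. Kallisto divides a read that matches several transcripts, which leaves estimates that are not whole. An estimate more than 0.01 away from a whole number was present in at least 1 library of the own group for 93 L-exclusive (83.0%) and 60 M/G-exclusive transcripts (81.1%). The shares were 64.3% and 63.5% for all transcripts detected in all 3 libraries of those groups. Such an estimate was present in all 3 libraries for 53 L-exclusive (47.32%) and 28 M/G-exclusive transcripts (37.84%). By this stricter measure the sets lay close to all transcripts detected in all 3 libraries, at 44.91% and 37.98%. Because reads are divided between transcripts, a count of 0 is a statement about the transcript and not about its gene. Whether reads of the same gene stood with another transcript was not tested. Identifiers at version 1, which mark transcript models not revised since they were added, made up 63.4% and 59.5% of the sets. The share was 31.3% and 30.8% of the transcripts detected in all 3 libraries of those groups, and 42.0% of all 23686.

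The L-exclusive transcript with the highest lowest-library level was ENSBTAT00000051893.3, of 216 nt. It had 23, 14 and 54 counts in the L oocytes and 0, 0 and 1 in the M/G oocytes. Its FPKM was 45.9 ± 25.7 (SD, n = 3) in L oocytes, 2.98 times the FPKM of 15.4 that 3 counts would give in M/G 1. In cumulus cells it had 0, 3 and 1 counts in the L libraries and 79, 0 and 7 in the M/G libraries, so 2 M/G libraries and no L library were over the limit. The log2 fold change of L over M/G in cumulus cells was -3.61, which was not significant (edgeR adjusted P = 1). It was -0.86 without cumulus M/G 1 and -1.93 with the replicate block.

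ENSBTAT00000077638.1, of 5340 nt, was the L-exclusive transcript with the smallest cumulus P-value. It had 775, 19 and 1810 counts in L oocytes and 0 in each M/G oocyte. Its FPKM of 5.61 ± 5.89 (SD, n = 3) came from 4.74, 0.208 and 11.9 in L 1, L 2 and L 3. The cumulus counts were 102, 81 and 0 in the L libraries and 0, 0 and 0 in the M/G libraries. The groups of cumulus libraries overlapped at 0 through L 3, and the log2 fold change of 9.23 did not pass (edgeR adjusted P = 1).

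Among M/G-exclusive transcripts, ENSBTAT00000074464.1, of 342 nt, had the highest lowest-library level. Its counts were 386, 63 and 106 in M/G oocytes and 3, 0 and 0 in L oocytes. The FPKM in M/G oocytes was 127 ± 180 (SD, n = 3), an SD above the mean because M/G 1 reached 334 and the others 19.1 and 26.7. In cumulus cells the counts were 2, 0 and 37 in the L libraries and 20, 0 and 0 in the M/G libraries, with 1 library over the limit in each group. The log2 fold change was 1.96 (edgeR adjusted P = 1), and it turned to -1.88 without cumulus L 3.

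ENSBTAT00000066403.1, of 2415 nt, was the M/G-exclusive transcript with the smallest cumulus P-value. M/G oocytes had 417, 100 and 100 counts and L oocytes 0 each, and the M/G mean FPKM of 8.95 ± 12.4 (SD, n = 3) came from 23.3, 1.95 and 1.62 in M/G 1, M/G 2 and M/G 3. The cumulus libraries had 0, 0 and 0 counts in L and 360, 48 and 0 in M/G. This is the oocyte direction, but M/G 3 was also at 0, and the log2 fold change of -9.69 did not pass (edgeR adjusted P = 1).

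In cumulus cells, 57 of the L-exclusive and 53 of the M/G-exclusive transcripts were present in both groups, and none repeated the oocyte pattern over all 6 libraries. Of the 112 L-exclusive transcripts, 50.9% were over 3 counts in at least 1 L and at least 1 M/G cumulus library, 17 only in L libraries, 12 only in M/G libraries and 26 (23.2%) in none. Of the 74 M/G-exclusive transcripts, 71.6% were present in both cumulus groups, 7 only in L libraries, 9 only in M/G libraries and 5 (6.76%) in none. For all 23686 transcripts the shares were 72.5% in both groups and 13.9% in none. Among those detected in all 3 oocytes of a group, 84.4% (L) and 92.0% (M/G) were present in both cumulus groups, and 7.15% and 3.16% in none. These transcripts had a higher median level than the exclusive ones, and no comparison was matched for level. The gap between the sets was not seen in sets chosen without oocyte M/G 1, where 58.1% of 160 L-exclusive and 58.7% of 208 M/G-exclusive transcripts were present in both cumulus groups, and 17.5% and 21.6% in none. In sets chosen without any one of the other 5 oocyte libraries, presence in both groups was 44.1% to 55.8% for L-exclusive and 65.7% to 85.3% for M/G-exclusive transcripts. Each of these sets is larger than the one over all 6 libraries, and newly admitted members cannot be told apart from the role of the library left out. Within the 74, presence in both cumulus groups was 70.2%, 72.7% and 80% for the transcripts highest in M/G 1, M/G 2 and M/G 3, of which there were 47, 22 and 5. A single cumulus library is enough for presence here, and in bulk cumulus samples fewer cells of a type and less RNA per cell cannot be told apart.

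No L-exclusive transcript was over the limit in all 3 L and none of the M/G cumulus libraries, and no M/G-exclusive transcript was over it in all 3 M/G and none of the L cumulus libraries. With 1 cumulus library left out, the rule on the remaining 5 was met by up to 2 transcripts of each set: by 2, 2, 1 and 2 L-exclusive ones without L 1, L 3, M/G 2 and M/G 3, and by 1, 1 and 2 M/G-exclusive ones without L 1, L 3 and M/G 3. Over all 6 libraries, the reverse patterns were found in 0 transcripts of either set. Among the 23699 transcripts with an FPKM over 1 in at least 1 cumulus library, 55 (0.232%) had the L pattern and 63 (0.266%) the M/G pattern. A count of 0 in sets of this size is near these background shares. Both shares are for the rule over 6 libraries. The share of all transcripts that met the rule on 5 was not computed, so nothing is read from the counts with 1 library left out.

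The number of cumulus libraries that held a transcript was mostly low for the L-exclusive set and spread over the range for the M/G-exclusive set. Among the L-exclusive transcripts, 26, 23, 24, 14, 12, 9 and 4 were found in 0, 1, 2, 3, 4, 5 and 6 cumulus libraries. Among the M/G-exclusive transcripts, the numbers were 5, 13, 11, 10, 12, 13 and 10. All 6 libraries held 40.5% of the transcripts detected in all 3 L oocytes and 52.3% of those detected in all 3 M/G oocytes, against 3.57% and 13.5% of the exclusive ones. The exclusive transcripts were also lower in level. Their mean cumulus FPKM had a median of 0.835 (L) and 2.86 (M/G), against 6.07 and 9.25. The comparison was not matched for level, so the part of level in this gap was not tested.

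**Figure D4:**
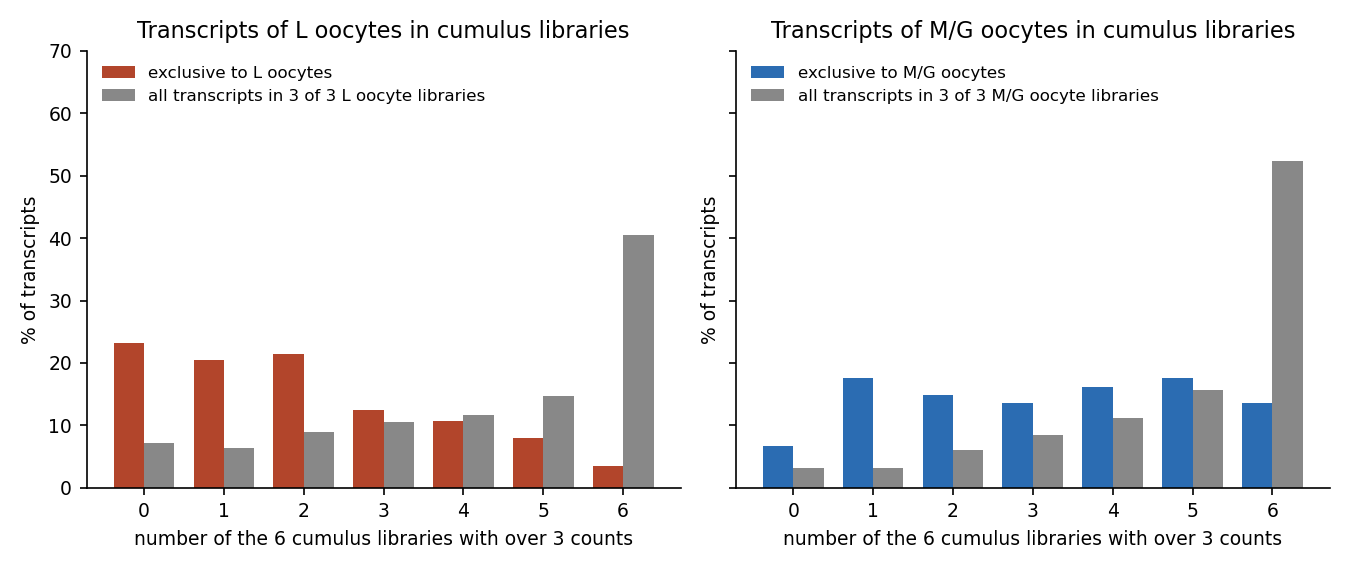
Percentage of transcripts (y axis) by the number of the 6 cumulus libraries in which they had over 3 counts (x axis), for L-exclusive (left) and M/G-exclusive transcripts (right) and for all transcripts detected in all 3 oocyte libraries of the same group (grey). The grey bars rise to 40.5% and 52.3% at 6 libraries, while 3.57% and 13.5% of the exclusive transcripts are there. The grey transcripts had a higher median level and were not matched to the exclusive ones.

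The number of exclusive transcripts detected overlapped between the cumulus groups. L-exclusive transcripts over the limit numbered 44, 48 and 33 in cumulus L 1, L 2 and L 3 and 25, 31 and 49 in M/G 1, M/G 2 and M/G 3. M/G-exclusive transcripts numbered 38, 46 and 32 in the L and 33, 38 and 51 in the M/G libraries. For both sets M/G 3 and L 2 were the highest. Over all transcripts, these libraries detected 20624 and 19170, against 12239 to 14840 in the other 4, and the part of this in the counts was not tested. The cumulus library of the cow that gave oocyte L 2 (cumulus L 3) held 33 L-exclusive transcripts, and those of the cows that gave oocytes M/G 1 and M/G 3 (cumulus M/G 3 and M/G 2) held 51 and 38 M/G-exclusive ones.

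Cumulus values were often high in some libraries and 0 in others. Of 36 L-exclusive transcripts with over 100 counts in at least 1 cumulus library, 32 (88.9%) had 0 counts in another. The figure was 30 of 42 (71.4%) for M/G-exclusive transcripts and 51.7% for all transcripts with over 100 counts in a cumulus library. The same was common in oocytes: of 20211 transcripts with over 100 counts in at least 1 oocyte library, 53.6% had 0 counts in another oocyte library. Within a single group, over 100 counts in one library and 0 in another were found for 30 of the 36 L-exclusive (83.3%) and 26 of the 42 M/G-exclusive transcripts (61.9%) in cumulus cells. This was so for 45.5% of all transcripts with over 100 counts in a cumulus library and for 49.4% in oocytes.

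The transcripts present in both cumulus groups differed little in oocyte level from the others. L-exclusive transcripts in both groups, in 1 group and in no cumulus library had median own-oocyte FPKM of 4.12, 4.25 and 3.70, and median lengths of 2480, 2026 and 1677 nt. For M/G-exclusive transcripts the median FPKM was 4.70, 5.55 and 3.33 and the median length 2196, 1530 and 2250 nt. The median of the mean cumulus FPKM was 0.835 over all L-exclusive and 2.86 over all M/G-exclusive transcripts, against 6.07 and 9.25 over the transcripts detected in all 3 oocytes of each group. A higher mean FPKM in cumulus cells than in the own oocytes was found for 25 of the 112 and 27 of the 74 (30.6% and 36.8% of the transcripts detected in all 3 oocytes of each group).

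The M/G-exclusive set held members that were abundant in cumulus cells of both groups. The largest, of 3474 nt, had 2200, 4811 and 40 counts in M/G oocytes and 0 in each L oocyte. In cumulus cells it had 5753, 11842 and 3757 counts in the L and 406, 23266 and 10344 in the M/G libraries, and its log2 fold change was -0.04 (edgeR adjusted P = 1). It was thus present in all 6 cumulus libraries, while the L oocytes held none.

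An M/G-exclusive transcript of 1541 nt had 183, 1499 and 333 counts in M/G oocytes and 0 in L oocytes. Its cumulus FPKM was 86.0 ± 37.2 in L and 110 ± 50.8 in M/G libraries (SD, n = 3 each), above its oocyte level of 24.7 ± 20.7. Another, of 2648 nt, had 696, 567 and 6 counts in M/G oocytes and 594 to 2889 in every cumulus library. The 5 most abundant members held 79.6% of all cumulus counts of the M/G-exclusive set, against 28.1% for the L-exclusive set. These 5 therefore set the sum, which was 0.197%, 0.306% and 0.129% of the counts in the L and 0.212%, 0.349% and 0.241% in the M/G cumulus libraries, with overlapping groups.

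Some L-exclusive transcripts were also higher in cumulus cells than in their own oocytes. The transcript of 1612 nt had an FPKM of 4.13 ± 4.08 in L oocytes, 13.7 ± 10.5 in L cumulus and 33.4 ± 16.1 in M/G cumulus libraries (SD, n = 3 each). Other members of both sets were missing from cumulus cells. The L-exclusive transcript of 3984 nt had 5231, 1547 and 10334 counts in L oocytes and rounded to 0 in the 3 M/G oocytes and in all 6 cumulus libraries. Its FPKM in L oocytes was 52.8 ± 35.7 (SD, n = 3). An L-exclusive transcript of 2788 nt, at 12.1 ± 5.76 FPKM (SD, n = 3), had 887, 854 and 541 counts in L oocytes, 1, 0 and 0 in M/G oocytes and 0 in all cumulus libraries. A count of 0 in all cumulus libraries was found for 17 of the 112 L-exclusive and 5 of the 74 M/G-exclusive transcripts. The most abundant of those 5 by lowest library, of 744 nt, had 224, 24 and 93 counts in M/G oocytes and an FPKM of 19.7 ± 27.2 (SD, n = 3). The L-exclusive sum in cumulus cells was 0.0711%, 0.0492% and 0.0471% of counts in the L and 0.0688%, 0.0702% and 0.0632% in the M/G libraries, again with overlapping groups.

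The difference between the groups in cumulus cells was then tested over all 23699 transcripts, with 77 L-exclusive and 66 M/G-exclusive transcripts among them. The others were under the FPKM limit in all cumulus libraries. By edgeR, 0 of the 23699 (0%) passed an adjusted P of 0.05, the smallest being 0.386, and so no exclusive transcript passed either (smallest adjusted P = 1 in both sets). At an unadjusted edgeR P under 0.05, 183 transcripts (0.772%) were higher and 179 (0.755%) lower in L. Of the L-exclusive transcripts 1 of 77 was higher and 0 lower, and of the M/G-exclusive ones 0 of 66 were higher and 1 lower, which is near the background. With DESeq2, 188 of 18431 transcripts that received an adjusted P passed (1.02%), and among them were 0 of 48 L-exclusive and 0 of 55 M/G-exclusive transcripts, with smallest adjusted P of 0.266 and 0.347. In oocytes, the contrast that chose the members, edgeR also called 0 of 23686 (0%), with 516 at an unadjusted P under 0.05. DESeq2 called 310 of 19088 (1.62%) in oocytes, of which 72 were L-exclusive and 59 M/G-exclusive, and nothing is read from this since the same counts chose them.

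The direction of the cumulus difference was mixed. The log2 fold change of L over M/G was above 0 in 48 of 77 L-exclusive transcripts (median 0.50), in 28 of 66 M/G-exclusive ones (median -0.17) and in 12447 of 23699 (52.5%, median 0.07). The medians moved with single libraries. Leaving out each cumulus library in turn gave medians from 0.00 (without L 1) to 1.90 (without M/G 3) for the L-exclusive, from -0.29 to 0.32 for the M/G-exclusive and from -0.16 to 0.41 for all transcripts. Neither median is given as a result about its set for this reason.

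**Figure D5:**
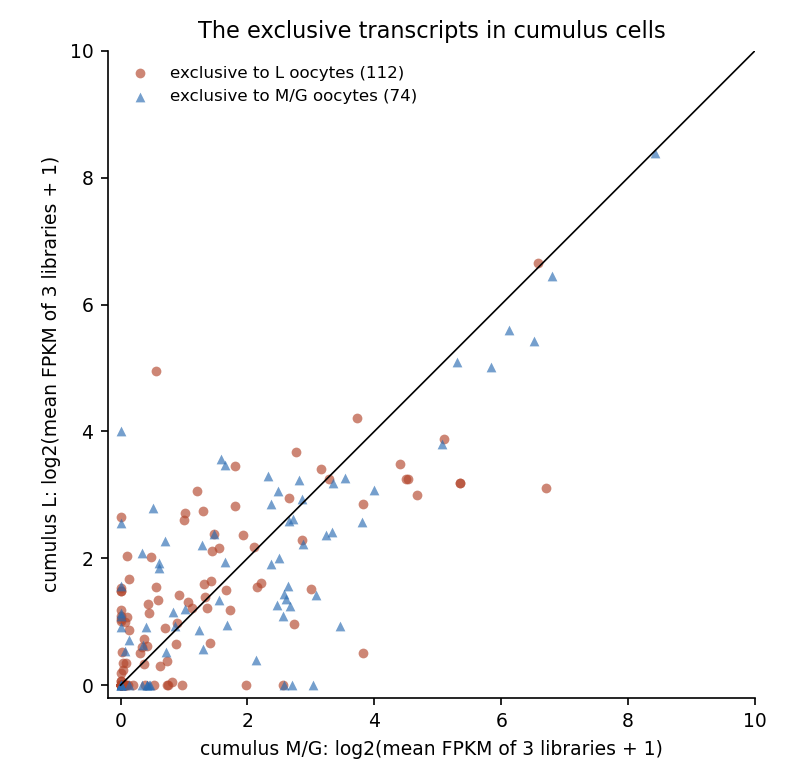
Mean level in the 3 L cumulus libraries (y axis) against the 3 M/G cumulus libraries (x axis), both as log2(mean FPKM + 1), for the 112 L-exclusive (circles) and 74 M/G-exclusive transcripts (triangles), with the line of equal level. Points of both sets lie on both sides of the line, and the abundant M/G-exclusive transcript of 3474 nt lies on it at the upper right.

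CPM values that did not overlap between the cumulus groups were rare in the sets. Among all 23699 transcripts, 397 (1.68%) were higher in every L than in every M/G library and 660 (2.78%) the reverse. Of the L-exclusive transcripts, 2 were higher in every L library and 1 in every M/G library. Of the M/G-exclusive transcripts, 2 were higher in every M/G library and 2 in every L library. These counts are near the background and fell in both directions for both sets.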

How the data were processed

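The authors trimmed the reads with fastp and quantified transcripts with Kallisto 0.44.0 against the Ensembl cow cDNA set, and they deposited 1 table per library with length, effective length, estimated counts and TPM (each transcript's length-corrected share of its library). The oocyte and cumulus libraries were made with different kits. In the oocyte tables the effective length is the length less 199 nt (transcripts over 400 nt), while in the cumulus tables the offset varies, so cumulus and oocyte FPKM are not on exactly the same scale. TPM values were not used for tests. Libraries with few exonic reads had been left out by the authors.

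FPKM was computed from estimated counts, effective length and the summed counts of the library. Estimated counts were rounded and fitted with the edgeR 4.0.16 quasi-likelihood test (TMM, R 4.3.3), separately for oocyte and cumulus libraries, keeping a transcript when any library of the cell type reached an FPKM above 1. P-values were adjusted by Benjamini-Hochberg over all transcripts tested, and an adjusted P under 0.05 was a call. DESeq2 1.42.0 was the alternative, and adjusted P-values it left empty stayed empty. Other tables were made with Python 3.11.15 and pandas 2.3.3. P-values measure the spread between cows, 1 library each. Detection limits cover counting error only. Alternatives were other limits, no filter, a replicate block, and leaving out each library.

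With no gene names, at most 2 identifiers per set were named: the member with the highest lowest-library FPKM and the member with the smallest cumulus P-value. Members given by length in place of an identifier were picked after their values were seen. The members and the tests were chosen with earlier results of these data known. Marker lists, which needed gene names, were not analysed here, nor were sequences.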

Additional observations from a re-analysis of the deposited data

Results flagged for a closer look

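The rule in oocytes and the cumulus libraries pointed in opposite directions, with no overlap in CPM (counts scaled to the library total) between the cumulus groups, for 1 L-exclusive and 2 M/G-exclusive transcripts. The difference between the cell types was not tested for them, and all 3 were singled out after their values were seen. They were 1.30% of the L-exclusive and 3.03% of the M/G-exclusive transcripts tested in cumulus cells. Among all 23699 transcripts tested there, 2.78% were higher in every M/G and 1.68% in every L library, so these counts are near the background. The L-exclusive transcript, of 1983 nt, had 260, 375 and 36 counts in L oocytes, 14.6, 16.2 and 16.1 CPM in L cumulus libraries and 33.4, 44.0 and 39.4 in M/G cumulus libraries (edgeR log2 fold change -1.01, adjusted P = 1). The first M/G-exclusive transcript, of 1152 nt, had 129, 69 and 14 counts in M/G oocytes, and 3.28, 2.93 and 5.66 CPM in L and 0, 0 and 2.10 CPM in M/G cumulus libraries, where 19 counts in L 2 and 19 in M/G 3 were apart only after scaling (log2 fold change 3.02, edgeR adjusted P = 1). The other, of 3052 nt, had 28, 487 and 536 counts in M/G oocytes, and cumulus counts of 1, 1 and 78 in L and 0 in each M/G library, so that L 3 alone was over the detection limit (log2 fold change 8.37, edgeR adjusted P = 1). Groups of 3 libraries were not tested for outlying values.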

How the results depend on the processing

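The number of exclusive transcripts depended on the level filter and on single libraries. With an FPKM over 1 required in all 3 libraries of the own group, 47 L-exclusive and 30 M/G-exclusive transcripts remained. Leaving out 1 oocyte library gave 160 to 658 L-exclusive and 126 to 305 M/G-exclusive transcripts. The most L-exclusive transcripts, 658, came without M/G 3, and the most M/G-exclusive, 305, without L 2; fewer libraries have to meet the rule in each of these. The change was over 1.5-fold for every library left out, except M/G 1 for the L-exclusive count. A limit of 0 or 10 counts, a CPM limit and no FPKM filter gave 96 to 125 and 70 to 81, with 86 to 112 and 51 to 74 of the same transcripts.

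In cumulus cells, presence of L-exclusive transcripts in both groups lay between 37 (without M/G 3) and 53 when 1 library was left out, and their absence from all libraries was 17 with a limit of 0 counts. Presence of M/G-exclusive transcripts in both groups was lowest, at 40, without cumulus M/G 3. Absence of M/G-exclusive transcripts lay between 5 and 11 without 1 library (11 without M/G 3, 8 without L 1), was 8 with a limit of 10 counts and 3 among members with over 10 counts in each own library. In sets chosen without oocyte M/G 1, an alternative added after seeing the data, 93 of 160 L-exclusive and 122 of 208 M/G-exclusive transcripts were present in both cumulus groups, and 28 L-exclusive and 45 M/G-exclusive ones in none. The higher presence and lower absence of the M/G-exclusive set in cumulus cells were not seen in these sets. Without any one of the other 5 oocyte libraries, also added after seeing the data, 105 to 367 L-exclusive and 93 to 260 M/G-exclusive transcripts were present in both groups and 46 to 153 and 7 to 23 in none, and 0 or 1 and 0 to 2 repeated the oocyte pattern. These sets are larger, with the highest counts without M/G 3 (367 and 153), without L 2 (260) and without M/G 2 (23). In the sets chosen without oocyte M/G 1, the oocyte pattern was repeated in cumulus cells by 1 L-exclusive and 0 M/G-exclusive transcripts. Without 1 cumulus library it was repeated by 0 to 2 of either main set, with no share over all transcripts computed for that rule.

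Across all transcripts, cumulus calls numbered 188 with DESeq2, 1 with the replicate block, 3 with no filter and 0 to 17 without 1 library (17 without L 2), and 310 in oocytes with DESeq2. No exclusive transcript was called in cumulus cells under any of these. The replicate numbers did not pair the libraries, which came from different cows; same-numbered deviations correlated at -0.295 to -0.01 in cumulus cells and -0.199 to 0.09 in oocytes. Without cumulus L 3 the log2 fold change of ENSBTAT00000074464.1 turned to -1.88, and without M/G 1 it was 7.25. Low counts and 3 libraries a group limit all of these comparisons.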
